A study of Rattus norvegicus with 3 samples.

Results

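Cx3cl1, Cxcl12, Il33, Il34, Il18, Il15 and Csf1 encode cytokines and chemokines that brain cells make without any immune stimulus, and these 7 genes are described here in nuclei of the rat brain. They are listed by name, with no threshold on a measured value, and all 7 were found among the 28370 gene names of the feature tables. The nuclei came from brains of female wild-type Crl:CD(SD) rats aged 12 weeks, taken 7 h after the animals received 1 of 3 treatments by the intraperitoneal route. These were saline as the control, 5 mg/kg lipopolysaccharide (LPS, a component of bacterial outer membranes sensed by Toll-like receptors), and 12 mg/kg poly(I:C), a synthetic double-stranded RNA that mimics viral RNA. Nuclei of 4 animals were pooled for each treatment, so each group is 1 library of 10x Genomics 5' v2 chemistry. There are no replicates, and every interval below is a 95% interval that covers counting error only, not the spread between animals.

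These proteins keep the resident immune cells of the brain alive and informed. CX3CL1 (fractalkine) sits on neurons and is read by CX3CR1 on microglia, and CSF1 and IL-34 are the ligands of CSF1R, on which microglial survival depends. CXCL12 acts through CXCR4 and the scavenging receptor ACKR3, and at brain vessels it holds leukocytes on the abluminal side. IL-33 and IL-18 belong to the IL-1 family, IL-33 being an alarmin of glial nuclei and IL-18 a product of caspase-1, while IL-15 is presented on the IL-15 receptor alpha chain to cells that carry the IL-2 receptor beta and gamma chains.

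The libraries held 25435, 11211 and 15001 barcodes after saline, LPS and poly(I:C), with 35532360, 29763787 and 21340578 unique molecular identifiers (UMIs, the count of captured RNA molecules). The median barcode held 1165, 2436 and 1264 UMIs. Between 247 and 550 barcode sequences were listed in both libraries of a pair, and leaving them out moved no member ratio outside its interval. Cell classes were gated on marker UMIs, with no member among the markers, which placed 32.9%, 42.7% and 33.0% of the barcodes. As a check of the treatments, Mx1, an antiviral GTPase, was 8.25-fold higher [4.36 to 17.2] after LPS and 202-fold higher [113 to 406] after poly(I:C). Of 10 listed interferon-stimulated genes 9 were found, and 8 and 9 of these were at least 2-fold above saline. Of the listed NF-kB targets, 6 of 8 measured were so after LPS and 4 of 7 after poly(I:C). Among all measured genes 2.5% and 2.22% were.

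Over whole libraries, Cxcl12 was the member that stood lowest against saline, and it did so after both stimuli. Csf1 stood higher after both stimuli, Il15 after poly(I:C) and Il33 after LPS, while Cx3cl1 and Il34 were a little lower and Il18 was close to its saline level. With at least a 2-fold difference as the rule, 2 of the 7 members (Il33 and Csf1) were higher after LPS, where 2.5% of 16179 measured genes were, and 1 (Cxcl12) was lower, where 1.73% were. After poly(I:C), 0 members were at least 2-fold higher, against 2.22% of 15872 genes, and Cxcl12 was lower, against 2.87%. In barcodes with at least 1000 genes the Csf1 ratio after LPS was 1.53, which ends that call, and after poly(I:C) Csf1 passed 2-fold with median-of-ratios scaling (2.06), with saline class shares (2.09) and without shared barcodes (2.03). The median log2 ratio of the members was 0.06 after LPS and 0.12 after poly(I:C), beside -0.03 and -0.09 for all measured genes. Both comparisons use the same saline library. In values summed over all barcodes, fewer cells of a type and less RNA per cell cannot be told apart.

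**Figure D1:**
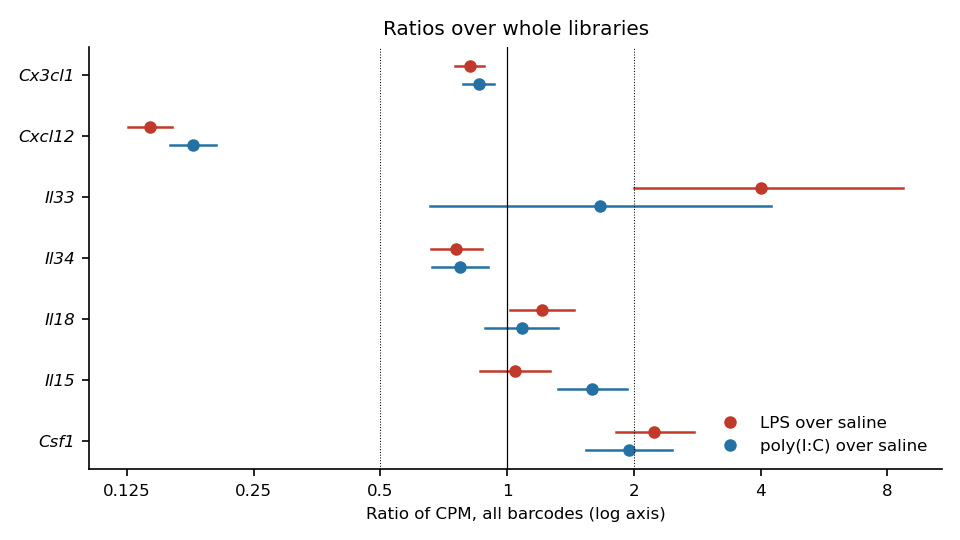
Ratio of CPM after LPS (red) and poly(I:C) (blue) to saline over all barcodes, on a log axis, for each of the 7 genes. Points are the ratios, lines the 95% counting intervals, the solid line marks a ratio of 1 and the dotted lines a 2-fold difference; Cxcl12 lies at 0.142 and 0.179, and Csf1 at 2.24 and 1.95.

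Among gated barcodes Cxcl12 was mainly a vascular transcript after saline. The library held 2598 of its UMIs, of which 744 (28.6%) lay in the 239 barcodes that passed the endothelial gate and 642 (24.7%) in the 190 that passed both the endothelial and the mural gate (pericytes and smooth muscle). Those barcodes stood at a level of 3982 CPM (UMIs scaled to a total of 1000000) [3701 to 4279] and 3428 CPM [3168 to 3704]. A level of 1546 CPM was found in 47 mural-gated barcodes (57 UMIs) and of 999 CPM in 35 fibroblast-gated barcodes (42 UMIs). A further 845 UMIs lay in ungated barcodes, at 36.6 CPM, and the cell type behind these is not known. A Cxcl12 UMI was present in 88.3% [83.5 to 92.1] of endothelial-gated barcodes (median depth 640 UMIs), against 1.30% [0.423 to 3.00] of mature oligodendrocytes (median depth 617 UMIs), a class that lacks vascular markers.

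Away from the vessels the level was low. The 4 neuron classes lay between 18.8 CPM in striatal projection neurons and 25.3 CPM in excitatory neurons of the Slc17a6 type, with overlapping intervals. Mature oligodendrocytes lay at 20.2 CPM [7.40 to 43.9] and oligodendrocyte precursors at 25.4 CPM [3.07 to 91.7]. The glial values rest on 6 and 2 UMIs, and the neuronal intervals lie within theirs. The actual part of free RNA in these low levels was not measured. Only a fixed, assumed share of free RNA was subtracted, among the alternative settings.

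After either stimulus the vascular level was several-fold lower. In endothelial-gated barcodes Cxcl12 had 71 UMIs in 96 barcodes after LPS (791 CPM [618 to 998]) and 65 UMIs in 122 barcodes after poly(I:C) (756 CPM [584 to 964]). Neither interval reached that of saline, and the 2 stimulated libraries overlapped each other. The ratio to saline was 0.199 [0.154 to 0.254] after LPS, which is 5.03-fold lower, and 0.190 [0.145 to 0.245] after poly(I:C), which is 5.26-fold lower. In this gate 13.5% of 3565 measured genes were at least 2-fold lower after LPS, and 17.2% of 3451 after poly(I:C). Barcodes that passed both vascular gates gave ratios of 0.191 [0.144 to 0.250] and 0.261 [0.193 to 0.346]. With every barcode thinned to 400 UMIs, the share of endothelial-gated barcodes with a Cxcl12 UMI was 77.4% [71.6 to 82.5] after saline, 22.9% [15.0 to 32.6] after LPS and 23.8% [16.5 to 32.3] after poly(I:C).

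The endothelial gate was set on the 15 endothelial markers found, so their presence in it follows from the gating. Their summed level in the gate was 10581, 12037 and 8948 CPM after saline, LPS and poly(I:C), with all 15 detected in each library. The gate also held red cell RNA, at 10254, 7668 and 3223 CPM for the summed erythroid markers, and 2 of these were among its 10 leading genes by fold after saline and after LPS, against 1 and 2 endothelial markers. After poly(I:C) the 10 leading genes held 0 endothelial and 0 erythroid markers, and began with Cxcl11, Cxcl10 and B2m, so the set is called here by its gate and not as a pure cell type. Barcodes of both vascular gates also had Hbb-b1 and Hba-a2, globin genes, among their leading genes after saline, with summed erythroid markers at 9308, 3674 and 1740 CPM. Without barcodes that held an erythroid UMI, which left 143, 66 and 96, the Cxcl12 ratios were 0.194 [0.139 to 0.265] and 0.165 [0.117 to 0.226]. With the endothelial, mural and joint gates pooled (476, 199 and 234 barcodes) they were 0.199 [0.166 to 0.237] and 0.217 [0.180 to 0.259].

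Over the whole libraries Cxcl12 stood at 73.1 CPM [70.3 to 76.0] after saline, 10.4 CPM [9.26 to 11.6] after LPS (309 UMIs) and 13.1 CPM [11.6 to 14.8] after poly(I:C) (280 UMIs). The endothelial gate held 0.526%, 0.301% and 0.403% of the UMIs of these libraries, so the share of vascular RNA was lower after both stimuli as well. With the class shares of the saline library given to all 3, the ratios were 0.191 after LPS and 0.224 after poly(I:C). The highest count in 1 barcode was 23 UMIs after saline and 9 after either stimulus, and 520 barcodes held 2 or more after saline against 47 and 48. The low level in neuron-gated barcodes was lower too, at 1.59 to 5.25 CPM after LPS and 1.34 to 6.74 CPM after poly(I:C). The actual part of free RNA in this level and in its decrease was not measured, and only a fixed, assumed share was subtracted among the alternative settings. In Slc17a7 neurons the ratios to saline were 0.241 [0.143 to 0.389] and 0.277 [0.153 to 0.473]. In the other 3 neuron classes they lay between 0.0680 and 0.267, and with a stricter gate the highest of these, in Slc17a6 neurons after poly(I:C), turned to 1.04 [0.168 to 4.86].

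**Figure D2:**
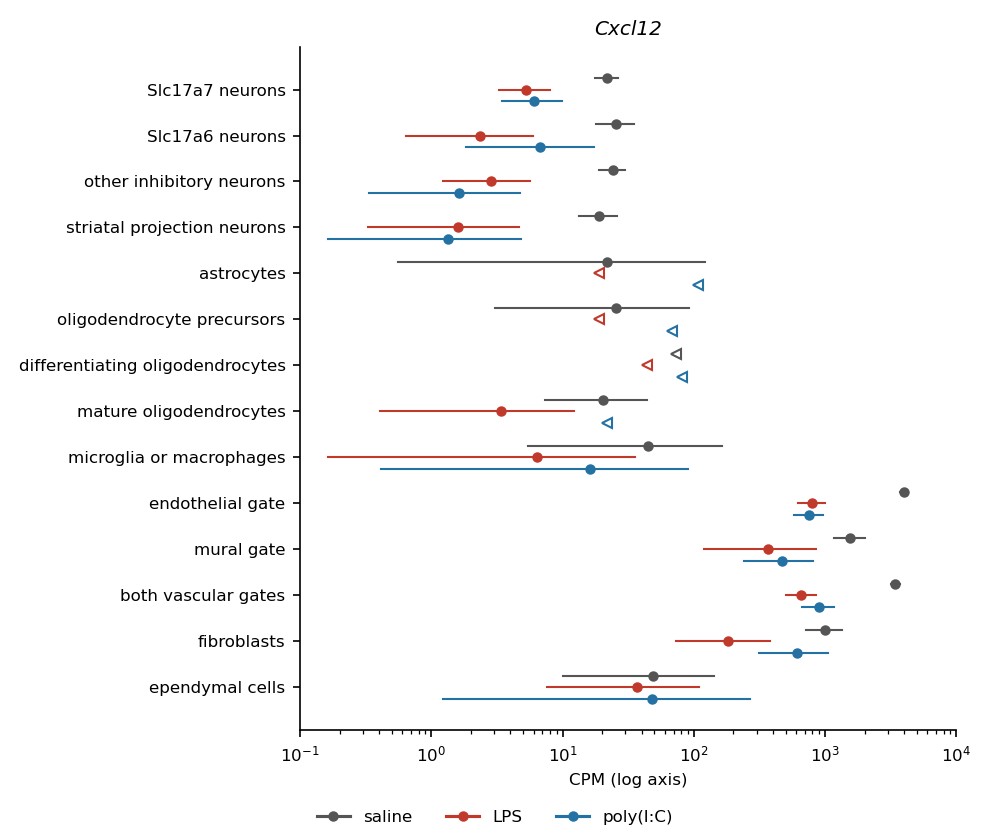
Cxcl12 level in CPM (log axis) by gated class after saline (grey), LPS (red) and poly(I:C) (blue). Points are levels, lines 95% Poisson intervals, and open triangles mark 3 counts where no UMI was found; in the endothelial gate the level was 3982 after saline, 791 after LPS and 756 after poly(I:C).

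The window of 250 bases before the Cxcl12 start in RefSeq (GRCr8, chr4:152060531-152060780, plus strand) is shown because this gene had the widest difference over whole libraries. It has 20 CG pairs, against a median of 5 over 33469 such windows. No match was found in it, on either strand, to 4 patterns: the core of the interferon-stimulated response element, GAAANNGAAA; the interferon-gamma activated site, TTCNNNGAA; the TATA box, TATAAA; and the NF-kB consensus. These are held by 3.41%, 7.67%, 12.93% and 6.33% of all windows. In the windows printed here, bases that match stand in capitals and all others in lower case.
Cxcl12: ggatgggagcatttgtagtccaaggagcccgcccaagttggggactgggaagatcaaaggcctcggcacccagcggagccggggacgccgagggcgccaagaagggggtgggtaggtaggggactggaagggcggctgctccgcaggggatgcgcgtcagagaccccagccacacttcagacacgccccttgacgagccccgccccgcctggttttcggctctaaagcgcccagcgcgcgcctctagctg

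Of the receptors of CXCL12, Cxcr4 had 10 UMIs after saline, 8 after LPS and 1 after poly(I:C), too few to rank. Ackr3 had 72, 85 and 45 UMIs, with a ratio of 1.41 [1.02 to 1.96] after LPS and 1.04 [0.701 to 1.53] after poly(I:C). In barcodes of both vascular gates Ackr3 had 4 UMIs after saline and 11 after LPS, a ratio of 5.63 [1.67 to 24.2]. In that set 12.7% of 3590 measured genes were at least 2-fold higher after LPS. Dpp4, a peptidase that cleaves CXCL12, had 41, 24 and 11 UMIs, and was 0.447 of saline [0.207 to 0.885] after poly(I:C).

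Most Cx3cl1 UMIs in gated barcodes lay in neurons after saline. Its level after saline was 62.6 CPM [50.6 to 76.6] in Slc17a6 neurons (94 UMIs), 45.1 CPM in striatal projection neurons (91 UMIs), 44.8 CPM in Slc17a7 neurons (208 UMIs) and 43.3 CPM in the other inhibitory neurons (139 UMIs). The 3 lower classes overlapped one another, and the Slc17a6 interval touched theirs only at its edge. Mature oligodendrocytes held 6 UMIs, at 20.2 CPM [7.40 to 43.9], an interval that reaches the neuronal ones. The larger set of 721 mature oligodendrocytes after LPS also held 6 UMIs, at 10.1 CPM [3.71 to 22.0], below all 4 neuron classes of that library, which lay between 35.8 and 55.4 CPM. Barcodes gated as microglia or macrophages (microglia below) held 0, 1 and 1 UMIs of this ligand in the 3 libraries.

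Within the gated neuron classes Cx3cl1 did not differ detectably from saline. In Slc17a7 neurons the 3 libraries stood at 44.8, 40.2 and 38.9 CPM, and in Slc17a6 neurons at 62.6, 55.4 and 67.4 CPM. Across the 4 neuron classes the ratio to saline was between 0.826 and 1.02 after LPS and between 0.803 and 1.08 after poly(I:C), and all 8 intervals held 1. Vascular barcodes held few UMIs of Cx3cl1 but were not without it. The endothelial gate held 5, 6 and 1 UMIs, at 26.8, 66.9 and 11.6 CPM, and barcodes of both gates held 1, 5 and 4, at 5.34, 54.7 and 67.6 CPM. In the latter the ratios were 10.2 [1.15 to 484] and 12.7 [1.25 to 623], on counts below the 10 UMIs asked for elsewhere. Over whole libraries the deeper counts gave 44.5 CPM after saline, 36.2 CPM after LPS and 38.1 CPM after poly(I:C), ratios of 0.815 [0.753 to 0.881] and 0.857 [0.786 to 0.933]. The same direction was seen in ungated barcodes, at 0.757 [0.684 to 0.838] and 0.839 [0.754 to 0.933]. These held 1027 of the 1580 saline UMIs of Cx3cl1, more than the gated neurons. A UMI of Syt1, a synaptic gene, was present in 90.1%, 91.5% and 91.3% of them, so a lower level in neurons outside the gates is not excluded.

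The Cx3cl1 window (GRCr8, chr19:10242821-10243070, minus strand, written in the direction of transcription) is shown as that of the neuronal member. It has 18 CG pairs and 1 match, in capitals, to TATAAA, which begins 78 bases before the listed start; none of the other 3 patterns matched.
Cx3cl1: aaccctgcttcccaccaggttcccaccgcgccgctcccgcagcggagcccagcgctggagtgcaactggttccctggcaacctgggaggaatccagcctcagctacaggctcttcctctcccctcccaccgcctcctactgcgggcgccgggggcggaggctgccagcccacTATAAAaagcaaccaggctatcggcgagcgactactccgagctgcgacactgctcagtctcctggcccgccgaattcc

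The receptor and the sheddases of CX3CL1 were measured as well. Cx3cr1, the microglial receptor, had 80, 119 and 52 UMIs, with a ratio of 1.78 [1.33 to 2.39] after LPS and 1.08 [0.748 to 1.55] after poly(I:C). Microglia-gated barcodes numbered 45 after saline, 125 after LPS and 75 after poly(I:C), and held 0.125%, 0.526% and 0.289% of UMIs. Their part in the Cx3cr1 values was not tested. Adam10, which sheds CX3CL1 at rest, had 3158, 2532 and 1616 UMIs, at ratios of 0.957 [0.908 to 1.01] and 0.852 [0.802 to 0.905]. In endothelial-gated barcodes Adam10 was 0.483 of saline [0.297 to 0.757] after poly(I:C), where 17.2% of 3451 measured genes were at least 2-fold lower. Adam17, the inducible sheddase, was near 1 over whole libraries (1.03 [0.900 to 1.18] and 1.19 [1.03 to 1.38]). In barcodes of both vascular gates Adam17 was 3.31-fold [1.58 to 7.19] and 4.14-fold [1.89 to 9.26] higher. A 2-fold rise was common in that joint set, reached by 12.7% of 3590 measured genes with LPS and 11.3% of 3124 with poly(I:C). The endothelial gate gave no such call for Adam17 with either stimulus, under a rule that asked for 20 UMIs over both libraries.

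The 2 ligands of CSF1R had different sources. Il34 was found in neurons, at 16.4 CPM [12.9 to 20.5] in Slc17a7 neurons (76 UMIs), 13.4 CPM in the other inhibitory neurons, 11.9 CPM in striatal projection neurons and 8.65 CPM [4.61 to 14.8] in Slc17a6 neurons, neighbours in that order overlapping. Among classes of at least 50 barcodes its highest level was vascular, at 85.4 CPM [48.8 to 139] in barcodes of both vascular gates (16 UMIs) and 80.3 CPM [44.9 to 132] in the endothelial gate (15 UMIs), and both intervals lay above those of the neuron classes. These vascular barcodes held 2.97% and 2.78% of the Il34 UMIs of the library, against 14.1% in Slc17a7 neurons. The 104 oligodendrocyte precursors and 45 microglia held none after saline.

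Il34 gave no ratio to saline in a gated class whose interval left out 1. Slc17a7 neurons stood at 16.4, 15.0 and 11.7 CPM in the 3 libraries, with ratios of 0.916 [0.642 to 1.30] and 0.714 [0.455 to 1.10]. The endothelial gate went from 15 UMIs after saline to 2 after LPS (0.278 [0.0308 to 1.19]) and 9 after poly(I:C) (1.30 [0.503 to 3.18]). Barcodes of both vascular gates ran the other way, from 16 UMIs to 13 after LPS (1.66 [0.736 to 3.69]) and 4 after poly(I:C) (0.791 [0.192 to 2.45]). Over whole libraries Il34 stood at 15.2, 11.5 and 11.7 CPM, ratios of 0.757 [0.660 to 0.869] and 0.772 [0.662 to 0.899]. Ungated barcodes gave 0.692 [0.574 to 0.831] and 0.725 [0.595 to 0.881].

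Csf1 had few UMIs in every class after saline, and after LPS it was also found in ependymal cells. The saline library held 136 UMIs, of which 12 lay in mature oligodendrocytes, at 40.3 CPM [20.8 to 70.4], above every neuron class (1.94 to 4.36 CPM). Astrocytes stood at 43.7 CPM on 2 UMIs, and the other inhibitory neurons held 14 UMIs at 4.36 CPM. After LPS the mature oligodendrocytes held 43 UMIs, at 72.4 CPM [52.4 to 97.5], a ratio of 1.80 whose interval of 0.930 to 3.74 holds 1. Ependymal cells, which line the ventricles, held 0 UMIs in 69 barcodes after saline, 25 in 90 barcodes after LPS (310 CPM [200 to 457]) and 2 in 30 barcodes after poly(I:C).

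Set against a floor of 3 counts in the saline class, ependymal Csf1 was at least 6.39-fold higher after LPS, where 14.9% of 1702 measured genes were at least 2-fold higher. A Csf1 UMI was present in 24.4% of ependymal barcodes after LPS, at a median depth of 733 UMIs, against 1.19% of the other inhibitory neurons at a median depth of 2358 UMIs. The ependymal barcodes of the 2 libraries differed in other RNA: the summed ependymal markers stood at 11228 CPM after saline and 21088 CPM after LPS, and neuronal RNA at 1971 and 1090 CPM. Without barcodes that held a UMI of Syt1, a synaptic gene, 38 and 65 barcodes were left and the bound was at least 3.38-fold.

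Vascular barcodes also held Csf1 after stimulation. Those of both gates held 3 UMIs after saline, 10 after LPS and 6 after poly(I:C), at 16.0, 109 and 101 CPM, and the LPS ratio was 6.83 [1.76 to 38.6]. Without barcodes that held a Syt1 UMI it was 4.79 [0.856 to 48.5], an interval that holds 1. In that joint set 12.7% of 3590 measured genes were at least 2-fold higher after LPS. The endothelial gate held 1, 6 and 8 UMIs, at 5.35, 66.9 and 93.1 CPM. In Slc17a7 neurons Csf1 stood at 1.94 CPM after saline (9 UMIs), 4.25 CPM after LPS and 6.41 CPM after poly(I:C) (17 UMIs each), and the poly(I:C) ratio was 3.31 [1.39 to 8.42], in a class where 1.09% of 11456 genes were at least 2-fold higher. That neuronal level is below the one in mature oligodendrocytes.

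Over whole libraries Csf1 stood at 3.83 CPM [3.21 to 4.53] after saline, 8.57 CPM [7.55 to 9.69] after LPS and 7.45 CPM [6.34 to 8.70] after poly(I:C). The ratios were 2.24 [1.81 to 2.78] and 1.95 [1.54 to 2.47]. Mature oligodendrocytes made up 0.838% of UMIs after saline and 1.997% after LPS, and with saline class shares the LPS ratio was 2.01. The shared receptor, Csf1r, had 104, 111 and 79 UMIs, with ratios of 1.27 [0.966 to 1.68] and 1.26 [0.932 to 1.71].

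**Figure D3:**
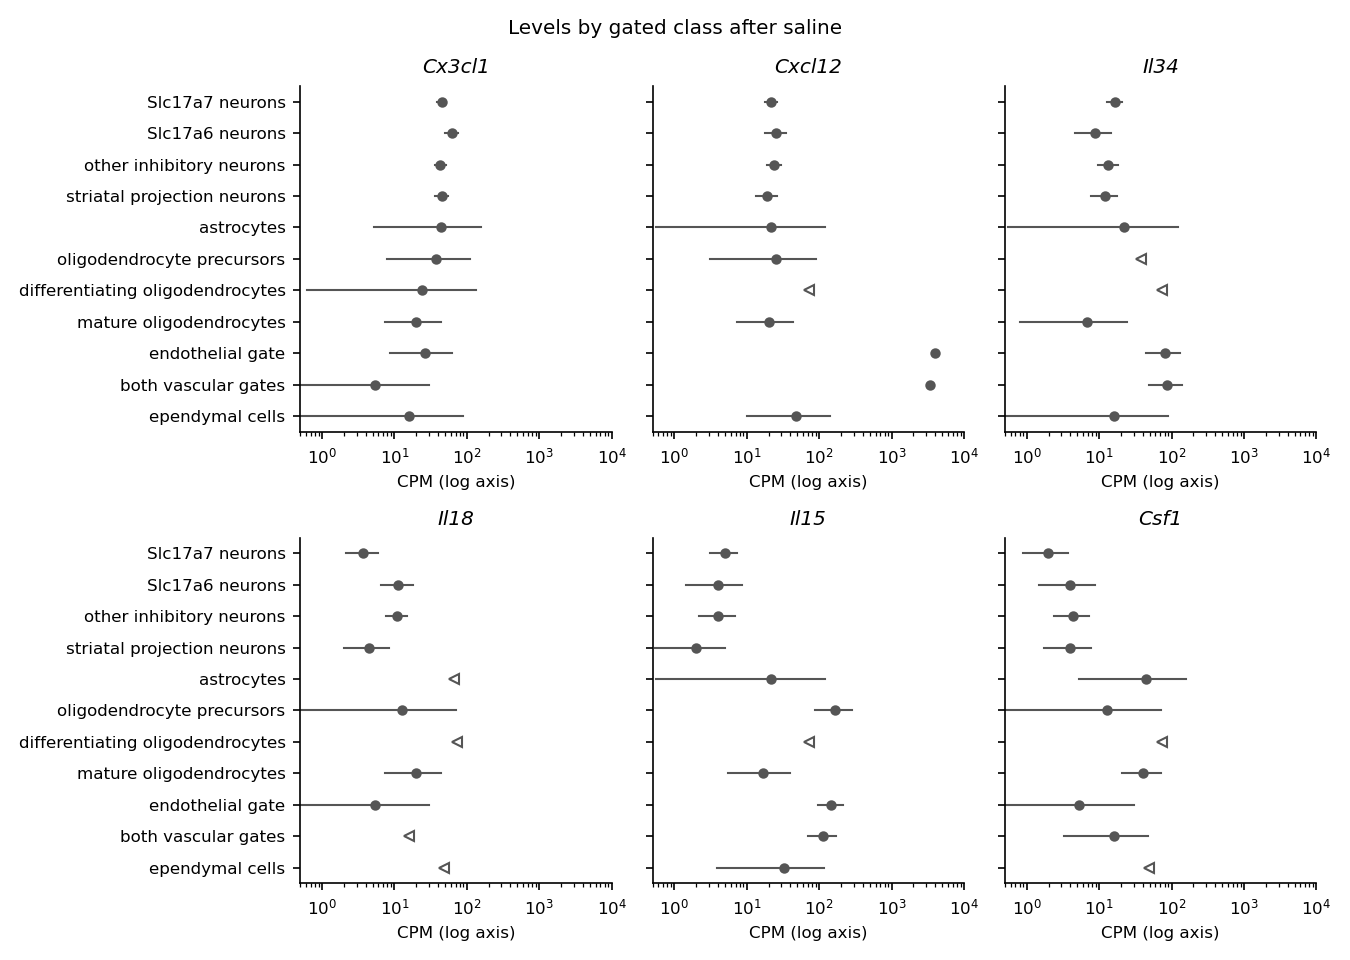
Level in CPM (log axis) after saline in each gated class of at least 50 barcodes, for 6 of the genes. Points are levels, lines 95% Poisson intervals and open triangles 3 counts where no UMI was found; Cxcl12 is far above the rest in the vascular gates, Cx3cl1 is best measured in neurons and Il15 is highest in oligodendrocyte precursors and vascular barcodes.

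Il15 was shared by vessels, oligodendrocyte precursors and fibroblast-gated barcodes after saline. The precursors held 13 UMIs, at 165 CPM [87.8 to 282], the endothelial gate 27 UMIs, at 145 CPM [95.2 to 210], and the barcodes of both vascular gates 21 UMIs, at 112 CPM [69.4 to 171], with overlapping intervals. The 35 fibroblast-gated barcodes held 13 UMIs, at 309 CPM [165 to 529]. Neuron classes lay between 1.98 and 4.95 CPM, below the mean of the library (6.67 CPM), and the 45 barcodes gated as microglia or macrophages held no UMI.

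Vascular Il15 was higher than saline after poly(I:C) but not after LPS. The endothelial gate stood at 145 CPM after saline, 100 CPM [45.9 to 190] after LPS (9 UMIs) and 349 CPM [236 to 498] after poly(I:C) (30 UMIs). The poly(I:C) ratio was 2.42 [1.39 to 4.22], in a gate where 12.3% of genes were at least 2-fold higher, and the LPS ratio was 0.694 [0.287 to 1.52]. Barcodes of both vascular gates gave 2.56 [1.27 to 5.10] after poly(I:C) and 0.293 [0.0559 to 0.980] after LPS (3 UMIs). The former was 1.98 [0.856 to 4.47] without Syt1-positive barcodes and 2.05 [0.771 to 4.96] with a stricter gate, intervals that hold 1. Compared directly, LPS stood at 0.287 of poly(I:C) [0.120 to 0.621] in the endothelial gate. With the 3 vascular gates pooled the poly(I:C) ratio was 2.49 [1.68 to 3.69] and the LPS ratio 0.469 [0.228 to 0.887].

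Oligodendrocyte precursors kept a level that could not be told from saline, at 113 CPM after LPS and 203 CPM after poly(I:C), with ratios of 0.684 [0.317 to 1.52] and 1.23 [0.465 to 3.12]. Slc17a7 neurons had 23, 19 and 4 Il15 UMIs, and the poly(I:C) ratio of 0.305 [0.0766 to 0.891] ran opposite to the vascular one, at a level below that of mature oligodendrocytes (16.8 CPM after saline). With a stricter gate this ratio was 0.325 [0.0607 to 1.14], which holds 1. Other neurons did not share that direction: the other inhibitory neurons had 13, 23 and 15 UMIs, with ratios of 2.03 [0.987 to 4.37] after LPS and 2.02 [0.894 to 4.60] after poly(I:C), and striatal projection neurons had 4, 3 and 9 UMIs. Over whole libraries Il15 stood at 6.67 CPM after saline, 6.95 CPM after LPS and 10.6 CPM after poly(I:C), ratios of 1.04 [0.861 to 1.26] and 1.59 [1.32 to 1.92].

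The Il15 window (GRCr8, chr19:42544456-42544705, plus strand) is shown beside that of Cxcl12 because these members stood on opposite sides of saline in vascular barcodes after poly(I:C). It has 3 CG pairs, and none of the 4 patterns matched. That says only that those letters are absent from these bases.
Il15: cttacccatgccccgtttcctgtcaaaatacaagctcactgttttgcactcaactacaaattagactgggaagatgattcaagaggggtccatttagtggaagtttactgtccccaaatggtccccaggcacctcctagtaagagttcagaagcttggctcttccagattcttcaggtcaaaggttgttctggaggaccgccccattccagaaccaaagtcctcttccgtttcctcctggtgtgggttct

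Il15ra, the chain that presents IL-15, was higher after both stimuli, with 53, 124 and 96 UMIs and ratios of 2.79 [2.01 to 3.93] and 3.02 [2.13 to 4.30]. Il2rg, the common gamma chain, had 18, 57 and 25 UMIs, with ratios of 3.78 [2.19 to 6.83] and 2.31 [1.21 to 4.50]. In barcodes of both vascular gates it went from 2 UMIs to 15 after LPS (15.4-fold [3.57 to 138]), where 12.7% of 3590 measured genes were at least 2-fold higher. Il2rb had 1 UMI in each library. The part of cell class shares, such as that of microglia, in the whole-library values of Il15ra and Il2rg was not tested.

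**Figure D4:**
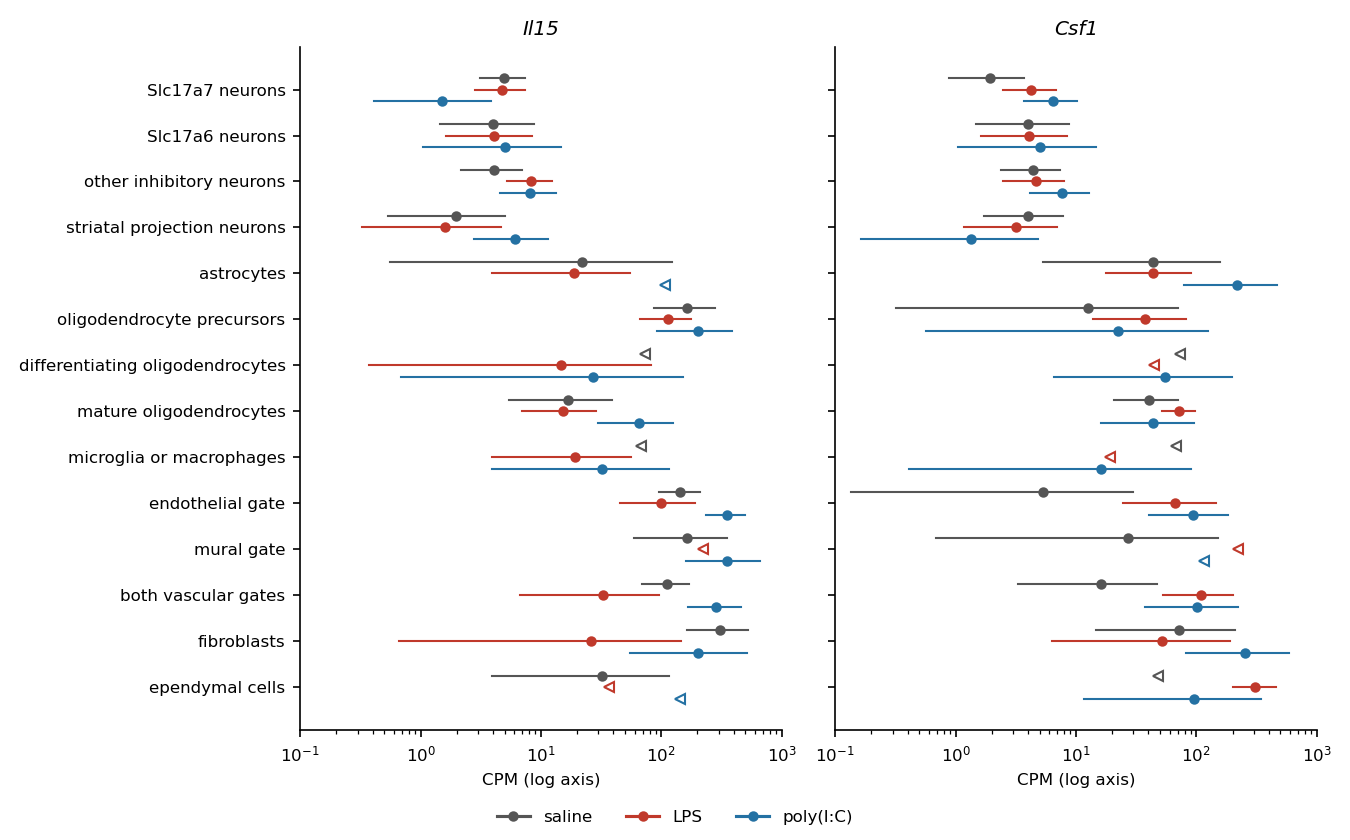
Il15 and Csf1 levels in CPM (log axes) by gated class after saline (grey), LPS (red) and poly(I:C) (blue). Points are levels, lines 95% Poisson intervals and open triangles 3 counts where no UMI was found; vascular Il15 is highest after poly(I:C), at 349 in the endothelial gate, and ependymal Csf1 reached 310 after LPS.

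After saline and LPS Il18 was highest in microglia, which stood at 135 CPM [49.5 to 294] after saline (6 UMIs in 45 barcodes), 166 CPM [109 to 243] after LPS (26 UMIs in 125 barcodes) and 81.0 CPM [26.3 to 189] after poly(I:C) (5 UMIs in 75 barcodes). The 3 intervals overlap. Neurons differed among themselves: Slc17a6 neurons stood at 11.3 CPM [6.59 to 18.1] and the other inhibitory neurons at 10.9 CPM [7.60 to 15.2] after saline, both above Slc17a7 neurons at 3.66 CPM [2.13 to 5.86]. Striatal projection neurons, at 4.46 CPM [2.04 to 8.47], lay with the Slc17a7 class. The order held after LPS, at 15.2, 11.1, 2.25 and 4.25 CPM for the Slc17a6, other inhibitory, Slc17a7 and striatal classes.

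No class ratio of Il18 left out 1. In the other inhibitory neurons the ratios were 1.02 [0.606 to 1.70] and 0.898 [0.479 to 1.63]. Over whole libraries Il18 stood at 7.26, 8.77 and 7.87 CPM, ratios of 1.21 [1.01 to 1.44] and 1.08 [0.887 to 1.32], and microglia made up 0.125%, 0.526% and 0.289% of UMIs. The part of that share in the LPS value was not tested.

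Several partners of IL-18 were higher after the stimuli. Il18bp, a secreted decoy that binds IL-18, had 0 UMIs in the endothelial gate after saline, 28 after LPS and 11 after poly(I:C), so that it was at least 19.4-fold higher after LPS, and at least 7.97-fold after poly(I:C), against a floor of 3 counts. Over whole libraries it was 1.37-fold [1.10 to 1.72] and 1.33-fold [1.04 to 1.69] higher. Nlrp3, an inflammasome sensor, had 15, 59 and 27 UMIs, with ratios of 4.70 [2.63 to 8.91] and 3.00 [1.54 to 6.06]. Casp1, which cleaves pro-IL-18, had 28, 36 and 47 UMIs, with ratios of 1.53 [0.911 to 2.61] and 2.79 [1.71 to 4.63]. Pycard, the adaptor between them, had 12, 17 and 16 UMIs, and both of its intervals held 1. Il18rap, a receptor chain, had 7, 17 and 3 UMIs and was 2.90-fold [1.14 to 8.27] higher after LPS. The microglial share of UMIs was higher after both stimuli, and its part in these whole-library values was not tested.

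**Figure D5:**
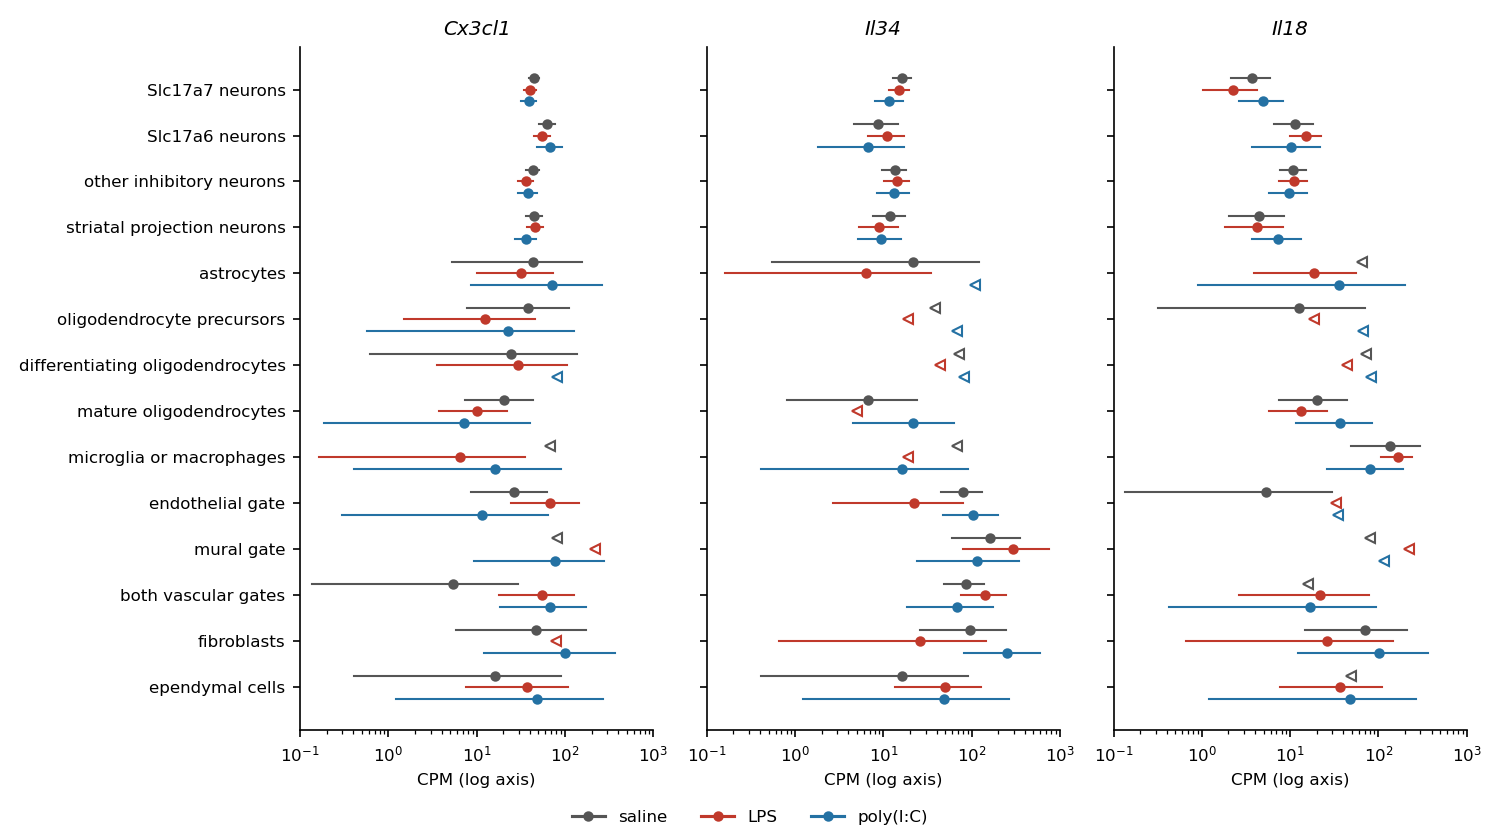
Cx3cl1, Il34 and Il18 levels in CPM (log axes) by gated class after saline (grey), LPS (red) and poly(I:C) (blue). Points are levels, lines 95% Poisson intervals and open triangles 3 counts where no UMI was found; within each neuron class the 3 libraries overlap, and microglial Il18 lies at 135, 166 and 81.0.

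Il33 was scarce in all 3 libraries, with 11 UMIs after saline, 37 after LPS and 11 after poly(I:C), each in a barcode of its own apart from 1 barcode with 2 after LPS. At 0.310, 1.24 and 0.515 CPM, the ratios were 4.02 [2.01 to 8.73] and 1.67 [0.655 to 4.23]. After LPS 10 of the 37 UMIs lay in 215 astrocyte-gated barcodes (62.9 CPM [30.1 to 116]) and 4 in oligodendrocyte precursors. The 75 astrocyte barcodes after saline held none, which allows a level of up to 65.6 CPM at 3 counts, so a difference within astrocytes was not detectable at this depth. Astrocyte-gated barcodes made up 0.295% of the saline library, 1.92% of the LPS library and 0.353% of the poly(I:C) library, and the part of this in the library-wide value was not tested. Il1rl1, the IL-33 receptor, had 9, 13 and 8 UMIs. Il1rap, its co-receptor, had 4331, 3928 and 2676 UMIs, with ratios of 1.08 [1.04 to 1.13] and 1.03 [0.980 to 1.08]. In the endothelial gate Il1rap had 10, 4 and 15 UMIs, with a ratio of 3.26 [1.37 to 8.12] after poly(I:C), while barcodes of both vascular gates gave 0.703 [0.0739 to 3.40].

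Among the 20 receptors, processing enzymes and binding proteins listed for these cytokines, 19 were found and 15 were measured (at least 20 UMIs over both libraries) in the LPS comparison. Of these, 4 (Il18rap, Il15ra, Il2rg and Nlrp3) were at least 2-fold higher, where 2.5% of all measured genes were, and 0 were lower, where 1.73% were. After poly(I:C), 13 were measured, 5 (Il15ra, Il2rg, Casp1, Nlrp3 and Pycard) were at least 2-fold higher, against 2.22% of all measured genes, and 1 (Dpp4) was lower, against 2.87%. The median log2 ratio of the list was 0.62 after LPS and 0.34 after poly(I:C), beside -0.03 and -0.09 for all measured genes. This list was chosen with earlier results of these data known, so its counts describe the list and are no test of it. The part of cell class shares in these whole-library values was not tested.

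The genes with the class profile most like that of each member after saline were found by Pearson correlation of log2(CPM + 10) over 11 classes. This is a description over classes of 1 library that differ in depth. Only classes of at least 50 barcodes after saline entered, so microglia, mural cells, fibroblasts and choroid plexus epithelium did not. The matches of Il18 and Il15 therefore leave out microglia and fibroblasts, where these members stood high. For Cxcl12 the most similar genes were B2m (r = 0.994), the light chain of MHC class I, Tmem204 (0.984) and Acer2 (0.983). For Cx3cl1 they included Rnft2 (0.926) and Nol4 (0.901), and for Il34 they were Sdcbp (0.983), Ndufb10 (0.981) and Cd59 (0.978). For Il15 they were Ube2l3 (0.959), H1f0 (0.934) and Tpr (0.927), for Csf1 Zfp317 (0.929), Daam2 (0.920) and Csnk1d (0.904), and for Il18 Smug1 (0.959) and 2 genes with no symbol in the feature tables.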

How the data were processed

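The deposited matrices hold raw counts of UMIs per feature and barcode for 3 libraries, made by the authors with Cell Ranger 7.0.0 per the file headers and on build mRatBN7.2 per the submitters' processing notes. The annotation release, intron setting and cell calling are not given in the sources used here. Counts were summed over features that share a name. The members, marker lists, gate settings and pathway list were chosen with earlier results of these data known.

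Scripts ran in Python 3.11.15 (matplotlib 3.10.9, pandas 2.3.3, scipy 1.17.1, numpy 2.4.6). All deposited barcodes entered. A barcode joined a class with at least 3 UMIs of at least 2 of its markers. Neuron classes also needed a marker share at least 2 times that of the mean library and a share of 7 pan-neuronal genes above 0.5 times its mean. Other classes needed at least 5 times the expected number of distinct markers and neuronal RNA at or below that limit. Of barcodes passing several gates, those whose best enrichment was at least 2 times the next joined that class and 498, 514 and 257 were left out after saline, LPS and poly(I:C), except the joint endothelial and mural set. No doublet caller was run. Of 228 listed markers, 14 were not found in the feature tables.

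Levels (CPM) are summed UMIs scaled to a total of 1000000, with exact Poisson intervals, shares carry exact Clopper-Pearson intervals, and ratios carry exact conditional 95% intervals. UMIs count molecules, but with 1 library per group no test between treatments was possible. Class ratios needed at least 50 barcodes in both libraries and at least 10 UMIs of the gene in 1. Genes counted as measured had at least 20 UMIs over both libraries. Where a group held 0 UMIs, ratios used a floor of 3 counts over the group. In simulated libraries of the LPS and saline depths over all barcodes, 99.5% of 200 genes changed 3-fold or 4-fold were recovered past 2-fold. There 95.5% of intervals held the true ratio and 0.653% of unchanged genes passed 2-fold. At the depths of the endothelial gate, 93.8% of 194 changed genes were recovered, 95.8% of intervals held the true ratio and 7.65% of unchanged genes passed 2-fold. The simulation held counting error only, with no spread between animals and no gating error. The named genes were all members, every pathway gene, and for each member with at least 100 saline UMIs the 3 genes most like its class profile. Of these, 1 is not reported here. Promoter windows came from RefSeq (GRCr8), which lists 5 of the 7 members; 3 are printed. As the files use another build, these coordinates were not joined to the counts.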

Additional observations from a re-analysis of the deposited data

Results flagged for a closer look

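Il15 stood on opposite sides of 1 in different classes under the same comparison. After poly(I:C) against saline the ratio was 2.42 in the endothelial gate and 2.56 in barcodes of both vascular gates, but 0.305 in Slc17a7 neurons. For LPS against poly(I:C) it was 0.287 and 0.114 in those vascular sets and 3.15 in Slc17a7 neurons. Other neurons did not share the Slc17a7 direction: after poly(I:C) the ratio was 2.02 [0.894 to 4.60] in the other inhibitory neurons and 3.05 [0.850 to 13.5] in striatal projection neurons. The difference between classes was not tested, since each class comes from the same 2 libraries without replicates. The Slc17a7 values rest on 23, 19 and 4 UMIs.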

How the results depend on the processing

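Of 145 alternative values of the whole-library ratios, 138 stayed within the interval of the ratio as reported, and of 843 within classes 836 did. Class intervals are wide where UMIs are few, so a value inside them says little about stability. Il15 in both vascular gates after poly(I:C) stayed inside without Syt1-positive barcodes, although its own interval then held 1. With saline class shares Cxcl12 was 0.191 after LPS and 0.224 after poly(I:C). In barcodes with at least 1000 genes Csf1 was 1.53 after LPS and 0.834 for LPS over poly(I:C), Il15 was 0.834 after LPS, and Il33 for LPS over poly(I:C) turned from 2.41 to 0.949. With at least 500 genes and at most 5% mitochondrial UMIs Cxcl12 was 0.937 for LPS over poly(I:C), 0 pathway genes were at least 2-fold lower after poly(I:C) and 2 were higher for LPS over poly(I:C). Without Syt1-positive barcodes Cxcl12 in both vascular gates was 0.143 after LPS and the ependymal Csf1 bound was 3.38. With a stricter gate Cxcl12 in Slc17a6 neurons after poly(I:C) turned from 0.267 to 1.04. The cause was not tested. Counts of genes at least 2-fold higher and lower were 404 and 280 after LPS, 352 and 456 after poly(I:C), and 405 and 227 for LPS over poly(I:C). Asking for 50 UMIs, they were 233 and 135 after LPS, 227 lower after poly(I:C), and 190 and 137 for LPS over poly(I:C). Asking only for 1 UMI in each library, they were 1006 and 891, 900 and 1050, and 1052 and 884. Another scaling (median of ratios) moved the median gene by at most 0.08 (log2) against saline. The gates without a limit on neuronal RNA, the pooled vascular gates, the removal of erythroid and of shared barcodes and thinning to 400 UMIs were added after seeing the data. No paired analysis was possible because each group is 1 library of pooled animals. Class values rest on few UMIs: no gated non-neuronal class held more than 43 UMIs of a member other than Cxcl12.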

Other observations

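Il18bp and Il2rg, the decoy of IL-18 and the common gamma chain, were each near or at 0 UMIs in barcodes of both vascular gates after saline, with 0 and 2 UMIs in 190 barcodes. After LPS the counts were 18 and 15 in 87 barcodes, and Il18bp had 11 in 73 barcodes after poly(I:C). Against a floor of 3 counts Il18bp was at least 12.3-fold higher after LPS, and at least 11.6-fold after poly(I:C).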
